A study of Homo sapiens with 4 samples.

Results

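Long intergenic non-protein-coding RNAs, whose gene symbols are LINC followed by digits, were examined in 2 human breast cancer cell lines. MDA-MB-231-LM2 (LM2) is the subline with lung-metastatic ability, and MDA-MB-231 is its parental line. Total RNA of 2 samples of each line was labelled, but the values came as 1 column for LM2 and 1 for MDA-MB-231. Whether a column stands for 1 library or for both together is not stated in the sources read, so the differences have no replicate check and no p-values. LM2 cells were grown in DMEM and MDA-MB-231 cells in Leibovitz L-15 medium. LM2 cells were kept in air with carbon dioxide and MDA-MB-231 cells in air alone. Cell line, medium and atmosphere therefore cannot be told apart. The labels name no further treatment, and each group is a single cell line.

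The symbol LINC followed by digits belonged to 2082 genes paired with an NR_ (RefSeq) or ENST (Ensembl) transcript. For each gene the transcript with the highest mean of both count columns was taken, and 152 genes whose mean was 50 counts or more were kept. These 152 LINC lncRNAs were thus chosen by their symbol and by the mean of both counts. A further 834 genes had counts above 0 but a mean under 50, and 1096 had 0 counts in both columns. The minimum used the counts of both cell lines, so a gene can pass it through either line alone. Each ratio below compares the count in LM2 with that in MDA-MB-231 after each was divided by its column total. The totals were 128985870 counts in LM2 and 130689252 counts in MDA-MB-231. The 95% interval of a ratio is exact (Clopper-Pearson) and covers counting error only. A gene was counted as higher or lower where the ratio was beyond 2-fold. RPKM adjusts a count for the length of its transcript and for the total of its column. In bulk RNA, fewer cells with a transcript and less of it per cell cannot be told apart.

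LINC genes lie mostly between protein-coding genes, are transcribed by RNA polymerase II, and are usually spliced, capped and polyadenylated. Most are present at low levels and in few cell types. Some act in the nucleus near their own locus, others bind proteins or microRNAs in the cytoplasm, and for most no function is known. In breast cancer, several have been studied for their relation to growth, invasion and patient outcome.

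The name intergenic held for most of these genes but not for all. Of the 144 found in GENCODE release 29, 122 had the type lincRNA, and the spans of 131 overlapped no protein-coding gene. Exon bases lay under protein-coding exons in 8 of them, and none of these 8 was beyond 2-fold. For LINC00261 and LINC01089, over 50% of the exon bases did so. Whether strand was used in counting is not stated, so reads of overlapping genes cannot be told apart. In 3 cases (LINC00473, LINC00461 and LINC00638) a transcript of a differently named gene at the same place held the same counts. As a check of the cell lines, 8 markers of mesenchymal breast cancer cells such as VIM and CD44 had RPKM values from 9.59 to 951 in LM2 and from 11.6 to 550 in MDA-MB-231, with S100A4 over 2-fold lower in LM2 and the other 7 within 2-fold. Of 6 luminal or epithelial markers, ESR1, PGR and CDH1 had at most 8 counts in LM2 and at most 13 in MDA-MB-231, and ERBB2 was the highest with an RPKM of 3.22 in LM2 and 4.91 in MDA-MB-231. FOXA1 had 57 counts in LM2, against 10 in MDA-MB-231, and GATA3 had 95 in LM2 and 88 in MDA-MB-231. Among 10 markers of blood, vessel, muscle and liver cells, CD3E, HBB and MYH7 had 0 counts in both lines. The endothelial marker PECAM1 had 343 counts in LM2, against 48 in MDA-MB-231, and the monocyte marker CD14 had 114 in LM2, against 199 in MDA-MB-231. The summed RPKM of these 10 markers was 1.31 in LM2 and 1.39 in MDA-MB-231, with PECAM1 and CD14 in opposite directions, and their part in the results was not tested.

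LINC lncRNAs differed between the lines in both directions, with the extremes at 0 or a few counts in either line. Of the 152 genes, 20 were over 2-fold higher in LM2, where 4.55% of all 15354 named genes at the same minimum were, and 25 were over 2-fold lower, where 6.88% of all genes were. The remaining 107 lay within 2-fold. In all, 29.6% of the LINC genes were beyond 2-fold, against 11.4% of all genes. The share was 15.4% of the 39 genes taken with an NR_ transcript and 34.5% of the 113 taken with an ENST transcript. The median of mean counts was 293.5 for the NR_ genes and 135.5 for the ENST genes. The whole interval lay beyond 2-fold for 13 higher and 17 lower LINC genes, as it did upward for 3.18% and downward for 4.71% of all genes. The median log2 ratio was -0.23, with quartiles of -0.65 and 0.37, beside a median of 0.00 and quartiles of -0.36 and 0.29 over all genes. The ratio was below 1 for 92 LINC genes and above 1 for 60. Their counts summed to 48871 in LM2 and to 54785 in MDA-MB-231, a log2 ratio of -0.15, so the pooled level was close in both lines while single genes stood far apart.

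**Figure D1:**
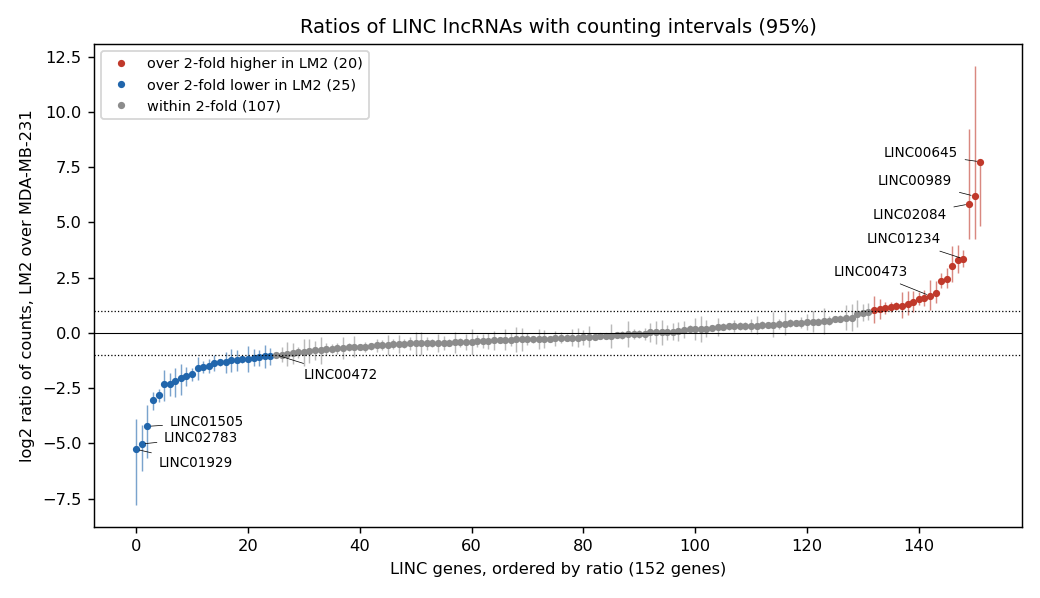
The 152 LINC genes in order of their ratio (horizontal axis), with the log2 ratio of counts in LM2 over MDA-MB-231 on the vertical axis. Points are genes, bars are exact 95% counting intervals (no upper bar for LINC00645, at 0 counts in MDA-MB-231), and dotted lines mark 2-fold: 20 genes lie above them, 25 below and 107 between.

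The levels were low. An RPKM above 1 was reached in both lines by 52 genes, in LM2 alone by 10, in MDA-MB-231 alone by 11 and in neither by 79. The median RPKM was 0.709 in LM2 and 0.692 in MDA-MB-231. Only 6 genes had an RPKM over 5 in either line. Counts were low as well, with a mean of 50 to under 200 counts for 90 of the 152 genes.

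Among the genes higher in LM2, 3 were at or near 0 in MDA-MB-231. LINC00645, on chromosome 14, had 105 counts in LM2, against 0 in MDA-MB-231, 35.5-fold higher against a floor of 3 counts and at least 28.3-fold higher by the lower limit of its interval. LINC00989, on chromosome 4, had 107 counts in LM2, against 1 in MDA-MB-231 (108-fold higher, interval 19.0 to 4322). LINC02084, a gene of 1 exon on chromosome 3, had 140 counts in LM2, against 2 in MDA-MB-231 (70.9-fold higher, interval 19.3 to 591). The intervals of the 3 ratios overlap, so their order is not resolved. These 3 RNAs were present in LM2 and close to the limit of detection in MDA-MB-231. Even in LM2 they stayed below an RPKM of 1, at 0.232, 0.399 and 0.990 in the order given.

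LINC01234 and LINC02241 combined a 10-fold difference with a higher level. LINC01234, studied in breast and gastric cancer, had 638 counts in LM2, against 63 in MDA-MB-231 (10.3-fold higher, interval 7.91 to 13.5), and its RPKM was 2.37 in LM2 and 0.231 in MDA-MB-231. All 5 of its transcripts at the minimum were higher in LM2, with log2 ratios from 2.12 to 3.35. LINC02241 had 247 counts in LM2, against 25 in MDA-MB-231 (10.0-fold higher, interval 6.62 to 15.8). Its 2 transcripts at the minimum had log2 ratios from 3.30 to 5.76, so the size of its difference depends on the transcript. The transcript counted has 12 exons, and the LINC02241 gene runs from 20611840 to 20937691 on chromosome 5 (GRCh38). The gene lies 36.1 kb from CDH18, a type II cadherin gene. CDH18 had 1300 counts in LM2, against 2 in MDA-MB-231, so both genes at this locus were higher in LM2, CDH18 by more.

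LINC01139, LINC00601 and LINC01320 were between 5-fold and 9-fold higher in LM2. LINC01139, also known as LINK-A and described in triple-negative breast cancer as a regulator of HIF-1 alpha signalling, had 460 counts in LM2, against 91 in MDA-MB-231 (5.12-fold higher, interval 4.08 to 6.49). LINC00601, 25.4 kb from the metalloprotease gene ADAM12, had 283 counts in LM2, against 52 in MDA-MB-231 (5.51-fold higher, interval 4.09 to 7.56). LINC01320 had 124 counts in LM2, against 15 in MDA-MB-231 (8.38-fold higher, interval 4.89 to 15.4). All 3 passed an RPKM of 1 in LM2 and stayed below 0.5 in MDA-MB-231.

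Smaller differences in the same direction were found for LINC00355, LINC00473, LINC01615 and LINC02615. LINC00473, known as a target of cAMP and CREB signalling, had 80 counts in LM2, against 25 in MDA-MB-231 (3.24-fold higher, interval 2.05 to 5.30). RefSeq places it within the span of the phosphodiesterase gene PDE10A, and an ENST transcript now named PDE10A held the same 80 and 25 counts. The most counted PDE10A mRNA had 1660 counts in LM2 and 1345 in MDA-MB-231, within 2-fold. LINC00355 had 158 counts in LM2, against 45 in MDA-MB-231 (3.56-fold higher). LINC01615 had 279 counts in LM2, against 95 in MDA-MB-231 (2.98-fold higher), and LINC02615 had 361 in LM2, against 125 in MDA-MB-231 (2.93-fold higher). The lower limits of these intervals were all above 2-fold.

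The promoter windows of 4 genes higher in LM2 are printed because they hold both kinds of start found among the LINC genes, rich and poor in CpG. Each window runs from 250 bases before to 50 bases after the RefSeq start (GRCh38.p14), 5′ to 3′ on the strand of the gene. Capitals mark matches, on either strand, to the 8 motifs searched. The windows lie at chr12:113773634-113773933 (minus strand) for LINC01234, chr5:20611590-20611889 (plus strand) for LINC02241, chr3:27712669-27712968 (plus strand) for LINC02084 and chr6:165987990-165988289 (minus strand) for LINC00473.
LINC01234: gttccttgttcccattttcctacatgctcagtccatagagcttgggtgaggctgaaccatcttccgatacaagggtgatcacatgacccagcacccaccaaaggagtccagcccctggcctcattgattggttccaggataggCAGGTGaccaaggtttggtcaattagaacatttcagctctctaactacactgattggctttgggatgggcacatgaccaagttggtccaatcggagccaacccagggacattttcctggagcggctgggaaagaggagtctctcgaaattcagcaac
LINC02241: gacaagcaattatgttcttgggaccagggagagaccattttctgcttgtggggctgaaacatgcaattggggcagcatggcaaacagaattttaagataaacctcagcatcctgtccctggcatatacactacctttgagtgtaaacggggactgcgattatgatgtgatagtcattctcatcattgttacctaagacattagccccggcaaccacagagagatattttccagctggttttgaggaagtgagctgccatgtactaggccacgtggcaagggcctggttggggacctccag
LINC02084: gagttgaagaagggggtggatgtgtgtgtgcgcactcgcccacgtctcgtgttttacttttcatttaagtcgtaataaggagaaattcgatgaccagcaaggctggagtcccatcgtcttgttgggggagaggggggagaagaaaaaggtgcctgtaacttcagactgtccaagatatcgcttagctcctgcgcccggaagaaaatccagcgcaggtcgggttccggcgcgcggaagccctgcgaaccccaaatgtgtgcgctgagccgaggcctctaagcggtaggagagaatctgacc
LINC00473: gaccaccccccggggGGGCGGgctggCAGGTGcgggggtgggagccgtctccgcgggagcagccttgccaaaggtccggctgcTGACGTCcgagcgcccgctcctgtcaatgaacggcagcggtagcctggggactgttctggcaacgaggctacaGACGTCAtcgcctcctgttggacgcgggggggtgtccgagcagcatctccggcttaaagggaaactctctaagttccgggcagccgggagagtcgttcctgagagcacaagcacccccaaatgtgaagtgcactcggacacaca
The LINC01234 and LINC02241 windows held 4 CpG dinucleotides each. The LINC02084 window held 20 and the LINC00473 window 24. In the LINC00473 window the capitals include 2 matches to the core of the cAMP response element, TGACGTC, which 3.63% of all 27305 promoters in the table hold at least in 1 copy. The other capitals there are a GC box (GGGCGG) and an E2 box (CACCTG), and the capitals in LINC01234 are an E2 box. No motif searched was found in the LINC02241 and LINC02084 windows. LINC00473 was not placed in GENCODE release 29, and its start was not matched to a transcript there. Its window may therefore not mark the start of the RNA counted.

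The remaining 8 genes higher in LM2 had ratios from 2.06-fold to 2.67-fold. LINC01962, on chromosome 5, stood out among them by its level, with 711 counts and an RPKM of 13.4 in LM2, against 312 counts and an RPKM of 5.81 in MDA-MB-231 (2.31-fold higher, interval 2.02 to 2.65). That was the highest RPKM of any LINC gene in LM2. LINC01963 had 609 counts in LM2, against 275 in MDA-MB-231 (2.24-fold higher, interval 1.94 to 2.60). LINC01410, studied in several carcinomas, had 138 counts in LM2, against 66 in MDA-MB-231 (2.12-fold higher, interval 1.57 to 2.89). LINC02475, LINC02827, LINC01812, LINC01588 and LINC01341 make up the rest, and their intervals, like those of LINC01963 and LINC01410, reached below 2-fold.

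**Figure D2:**
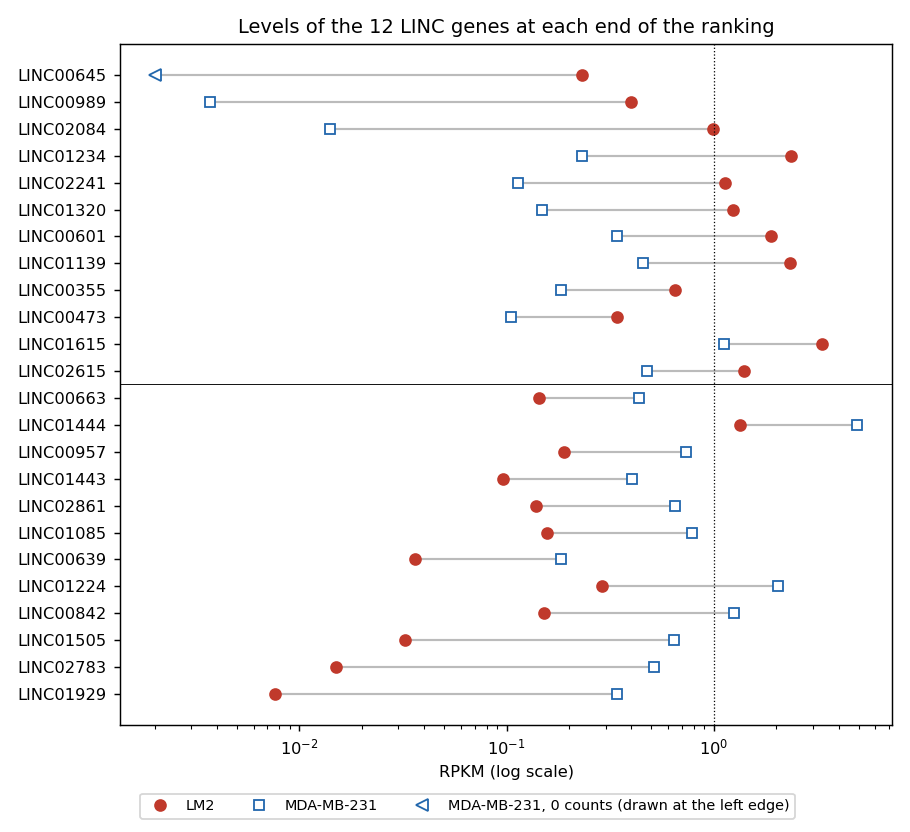
RPKM (horizontal axis, log scale) of the 12 LINC genes with the largest ratios (above the line) and the 12 with the smallest (below the line), with filled circles for LM2 and open squares for MDA-MB-231. LINC01234 lies at 2.37 in LM2 and 0.231 in MDA-MB-231, and LINC01444 at 1.34 in LM2 and 4.93 in MDA-MB-231; the dotted line marks an RPKM of 1.

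Among the genes lower in LM2, LINC01929, LINC02783 and LINC01505 were nearly absent from that line. LINC01929, on chromosome 18, had 3 counts in LM2, against 136 in MDA-MB-231 (44.7-fold lower, interval 15.0 to 219.7). LINC02783, on chromosome 1, had 9 counts in LM2, against 313 in MDA-MB-231 (34.3-fold lower, interval 17.9 to 75.8). It lies 8.74 kb from PADI1, a peptidylarginine deiminase gene, which had 31 counts in LM2, against 345 in MDA-MB-231. LINC01505, on chromosome 9, had 7 counts in LM2, against 142 in MDA-MB-231 (20.02-fold lower, interval 9.47 to 50.7). Like the genes at the other end, these 3 RNAs stayed below an RPKM of 1 in the line with the higher level, at 0.339, 0.512 and 0.644 in MDA-MB-231.

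The promoter windows of LINC01929 and LINC02783 are printed as those of the genes with the smallest ratios, and that of LINC00472 as the most abundant LINC gene at the edge of the 2-fold range. They lie at chr18:55124257-55124556 (minus strand), chr1:17189539-17189838 (plus strand) and chr6:71420696-71420995 (minus strand) of GRCh38.p14 in that order.
LINC01929: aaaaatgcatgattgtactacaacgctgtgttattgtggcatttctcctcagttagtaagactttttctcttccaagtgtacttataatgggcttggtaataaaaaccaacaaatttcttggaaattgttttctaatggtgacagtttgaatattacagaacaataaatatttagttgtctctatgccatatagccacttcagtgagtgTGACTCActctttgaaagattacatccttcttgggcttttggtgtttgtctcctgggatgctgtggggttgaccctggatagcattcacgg
LINC02783: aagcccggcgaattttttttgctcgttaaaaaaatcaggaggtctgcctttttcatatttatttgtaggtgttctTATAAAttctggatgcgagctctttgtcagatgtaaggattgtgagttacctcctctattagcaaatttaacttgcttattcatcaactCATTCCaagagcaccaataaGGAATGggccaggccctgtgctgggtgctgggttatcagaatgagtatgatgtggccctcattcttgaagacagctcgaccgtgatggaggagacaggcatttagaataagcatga
LINC00472: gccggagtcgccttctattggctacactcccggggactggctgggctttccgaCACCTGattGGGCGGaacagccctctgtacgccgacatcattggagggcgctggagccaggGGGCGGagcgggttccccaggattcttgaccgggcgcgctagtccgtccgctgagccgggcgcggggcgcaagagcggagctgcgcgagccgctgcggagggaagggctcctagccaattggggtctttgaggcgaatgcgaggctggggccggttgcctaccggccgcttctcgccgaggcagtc
The capitals mark an AP-1 site (TGANTCA) in LINC01929, which 7.76% of all promoters hold. In LINC02783 they mark a TATA box (TATAAA, held by 12% of all promoters) and 2 TEAD sites (GGAATG, held by 14%). In LINC00472 they mark 2 GC boxes (held by 44.6%) and an E2 box (held by 20.6%). The windows held 2 CpG dinucleotides in LINC01929, 6 in LINC02783 and 31 in LINC00472. A match is a run of letters and not evidence of a bound factor.

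LINC00842 and LINC01224 were lower in LM2 at higher counts. LINC00842, on chromosome 10, had 56 counts in LM2, against 473 in MDA-MB-231 (8.34-fold lower, interval 6.31 to 11.2). Its nearest coding gene SYT15, a synaptotagmin, had 81 counts in LM2, against 337 in MDA-MB-231. LINC01224, on chromosome 19, had 103 counts in LM2, against 735 in MDA-MB-231 (7.04-fold lower, interval 5.72 to 8.74). All 9 of its transcripts at the minimum were lower, with log2 ratios from -3.05 to -2.73. It lies 3.76 kb from the KRAB zinc finger gene ZNF91, which had 1020 counts in LM2, against 2094 in MDA-MB-231. So the LINC gene and its nearest coding neighbour were both beyond 2-fold lower at these loci, the LINC gene by more.

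A further 7 genes completed the 12 with the smallest ratios. LINC00639 (21 counts in LM2, against 108 in MDA-MB-231), LINC01085 (40 in LM2, against 203 in MDA-MB-231) and LINC02861 (25 in LM2, against 118 in MDA-MB-231) were between 4.66-fold and 5.08-fold lower. LINC02861 lies 2.80 kb from the adenylyl cyclase gene ADCY9, which had 1125 counts in LM2, against 2309 in MDA-MB-231. LINC00957 had 63 counts in LM2, against 249 in MDA-MB-231 (3.90-fold lower), and LINC00663 had 44 in LM2, against 135 in MDA-MB-231 (3.03-fold lower). LINC01443 and LINC01444, whose spans overlap on opposite strands of chromosome 18, had 23 and 132 counts in LM2, against 98 and 492 in MDA-MB-231. The other 13 genes lower in LM2 had ratios from 2.06-fold to 2.90-fold, and LINC02984 and LINC00705 were the most counted among them, with 467 and 394 counts in LM2, against 1082 and 1003 in MDA-MB-231.

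By mean RPKM the most abundant LINC lncRNAs were LINC00973 (12.4 in LM2 and 13.97 in MDA-MB-231), LINC00910 (12.9 in LM2 and 9.95 in MDA-MB-231), LINC01962 and LINC00472. LINC00472, a gene whose higher level in breast tumours has been tied to better outcome, had 1963 counts and an RPKM of 5.14 in LM2, against 3956 counts and an RPKM of 10.23 in MDA-MB-231. Its ratio was 1.99-fold lower with an interval from 1.88 to 2.10, so it lay at the edge of the 2-fold range. LINC01605, LINC01116 (which lies near the HOXD genes), LINC00339, LINC02742, LINC02951, LINC02595, LINC00467 and LINC01357 followed, with log2 ratios between -0.73 and 0.46. Of the 12 genes with the highest mean RPKM, 1 (LINC01962) was beyond 2-fold, beside 11.4% of all genes.

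LINC genes with a literature in breast cancer or in other carcinomas were named in 2 lists, which were written with earlier results of these data known. Of 28 breast cancer genes, 25 were paired with a transcript and 11 reached the minimum. Of these 11, 1 was over 2-fold higher (LINC01234), none was lower and 10 were within 2-fold, with a median log2 ratio of 0.28, beside 0.00 over all genes and 11.4% of all genes beyond 2-fold in either direction. LINC00472, the most counted gene of the list, had the lowest ratio of the 11 (log2 -0.99). It passed 2-fold (log2 -1.06) when the totals left out the 12 transcripts with most counts. LINC00511 and LINC00673, overlapping genes on chromosome 17, had 577 and 798 counts in LM2, against 435 and 665 in MDA-MB-231. LINC00324 had 1044 counts in LM2, against 688 in MDA-MB-231, and LINC00665 had 171 in LM2, against 92 in MDA-MB-231. LINC00460 had 64 counts in LM2 and 40 in MDA-MB-231. LINC00963, LINC00115, LINC01089 and LINC01116 lay within 0.3 of 0 on the log2 scale, all with fewer counts in LM2. Several other genes of the list were close to undetected, such as LINC01638 with 1 count in LM2, against 21 in MDA-MB-231, and LINC02273 with 11 counts in LM2, against 0 in MDA-MB-231.

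Of 23 genes studied in other carcinomas, 18 were paired and 9 reached the minimum. LINC00473 and LINC01410 were over 2-fold higher in LM2, none was lower and 7 were within 2-fold, with a median log2 ratio of 0.35, which is the value of LINC00941. LINC00857 had 799 counts in LM2, against 573 in MDA-MB-231, LINC00941 had 595 in LM2, against 474 in MDA-MB-231, and LINC00662 had 473 in LM2, against 385 in MDA-MB-231. LINC00467 had 368 counts in LM2, against 270 in MDA-MB-231. LINC00261, LINC00707 and LINC01106 had fewer counts in LM2 than in MDA-MB-231, within 2-fold. LINC00261 had 597 counts in LM2, against 823 in MDA-MB-231, and 97.3% of its exon bases lie under a transcript that GENCODE marks as coding. With the transcript of highest mean RPKM in place of the most counted one, the log2 ratio was -0.06 for LINC00941 and 1.03 for LINC00662, so the direction of LINC00941 and the 2-fold position of LINC00662 depend on the transcript. The shares beyond 2-fold in both lists rest on few genes, beside 11.4% of all genes.

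The share of genes beyond 2-fold was compared between LINC genes and other classes within bands of mean count, which narrow the difference in counts but do not remove it. The share beyond 2-fold was larger at low counts over all genes, and LINC genes had a median of 146.8 mean counts, against 1504 for protein-coding genes. At a mean of 50 to under 200 counts, 32 of 90 LINC genes (35.6%) were beyond 2-fold, against 34.3% of 1448 protein-coding genes, 25% of all 2912 genes and 16.6% of 404 antisense, divergent and snoRNA or miRNA host lncRNAs. At a mean of 200 to under 1000 counts, 13 of 56 LINC genes (23.2%) were beyond 2-fold. The shares there were 15% of 3349 protein-coding genes, 13.5% of all 4400 genes and 9.01% of 333 other lncRNAs. None of the 6 LINC genes at a mean of 1000 counts or more was beyond 2-fold, against 5.43% of all genes. These shares are a description of 2 columns, and no test of their difference was made.

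**Figure D3:**
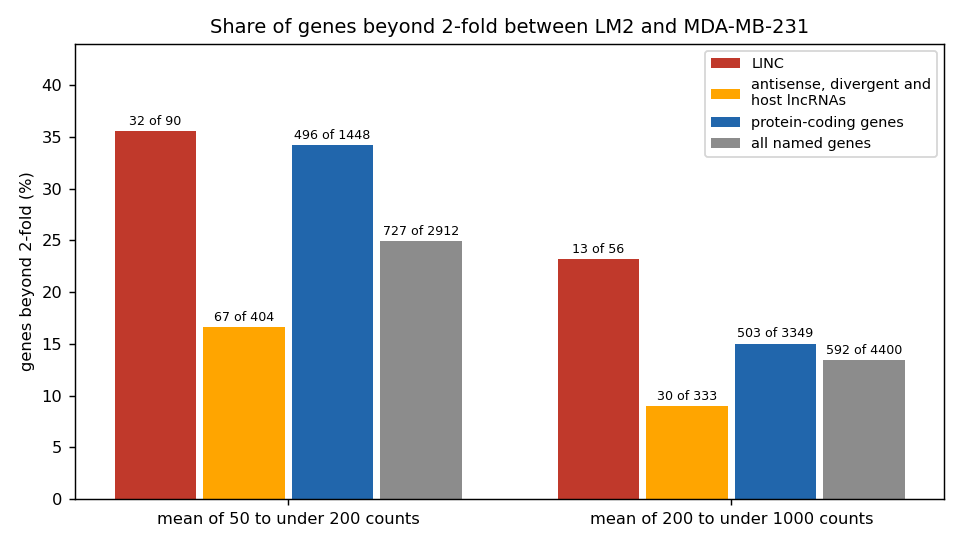
Share of genes beyond 2-fold between LM2 and MDA-MB-231 (vertical axis, percent) in 2 bands of mean count (horizontal axis), with bars for LINC genes, other lncRNAs, protein-coding genes and all named genes. In the lower band LINC genes (35.6%) lie beside protein-coding genes (34.3%), and in the band of 200 to under 1000 counts they reach 23.2%, against 15% for protein-coding genes.

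Most LINC genes did not follow the nearest protein-coding gene closely. The nearest coding gene at the minimum lay a median of 35.8 kb away, and 85 of 152 LINC genes (55.9%) were on the same side of 0 on the log2 scale as that gene. Across the 152 pairs the log2 ratios had a Pearson correlation of 0.18 and a Spearman correlation of 0.17, given as a description because neighbouring genes share a locus and both columns. Protein-coding genes set against their own nearest coding gene were on the same side in 62.4% of 12394 cases, with a Pearson correlation of 0.27. The 2 sets were not matched for counts or distance, and LINC genes had fewer counts (a median of 146.8, against 1504 for protein-coding genes). For the 68 LINC genes over 50 kb from the nearest coding gene, 35 were on the same side and the correlation was 0.02.

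Coding neighbours beyond 2-fold in the same direction were counted for the genes higher and lower in LM2, with no test of the difference. Over all 12394 protein-coding genes at the minimum, 4.62% were over 2-fold higher in LM2 and 6.79% were over 2-fold lower. Of the 25 lower LINC genes, 8 had a nearest coding gene over 2-fold lower and 1 had one over 2-fold higher. Besides PADI1, SYT15, ZNF91 and ADCY9, these were ZFP36L2, SIX2, GPAT2 and SUSD1. LINC01126, 0.605 kb from ZFP36L2, a gene for an RNA-binding protein of mRNA decay, had 49 counts in LM2, against 104 in MDA-MB-231. ZFP36L2 itself had 260 counts in LM2, against 802 in MDA-MB-231. LINC01833 had 53 counts in LM2, against 126 in MDA-MB-231, and the homeobox gene SIX2, 66.0 kb away, had 157 in LM2, against 409 in MDA-MB-231.

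Of the 20 higher LINC genes, 2 had a nearest coding gene over 2-fold higher, CDH18 beside LINC02241 and RYR2 beside LINC01139. RYR2, a calcium release channel gene 646 kb away, had 192 counts in LM2, against 51 in MDA-MB-231. LINC01615 went with a neighbour on the other side, since the thrombospondin gene THBS2, 52.8 kb away, had 6 counts in LM2, against 156 in MDA-MB-231. Of the 107 LINC genes within 2-fold, 9 had a nearest coding gene over 2-fold higher and 4 had one over 2-fold lower. The 9 do not stand for as many coding genes. SLC16A1, PRDM9, PRKCH and CEBPB were each counted more than once, through LINC genes that lie side by side. Over all protein-coding genes the shares were 4.62% higher and 6.79% lower. LINC01357, 34.0 kb from the lactate transporter gene SLC16A1, had 184 counts in LM2, against 310 in MDA-MB-231, while SLC16A1 had 223 in LM2, against 28 in MDA-MB-231. LINC01270 and LINC01271 had 59 and 63 counts in LM2, against 95 and 99 in MDA-MB-231, while the nearest coding gene of both, the transcription factor gene CEBPB, had 6349 in LM2, against 2047 in MDA-MB-231. At these loci a coding gene beyond 2-fold lay beside LINC genes within 2-fold.

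The share of LINC genes beyond 2-fold was larger at a greater distance from the nearest coding gene at the minimum, which was not tested. Mean counts were not matched between distances, and no share by distance over all genes is given beside it. It was 20.9% of 43 genes at under 10 kb, 23.4% of 64 at 10 to 100 kb, 41.9% of 31 at 100 to 500 kb and 57.1% of 14 at over 500 kb. Of the 14 most remote genes, 6 were higher in LM2 and 2 were lower. The 2 lower genes, LINC01443 and LINC01444, overlap on opposite strands and are not separate loci. LINC00645 lay 2919.5 kb from the nearest coding gene at the minimum. The median of the 30 nearest coding genes was on the same side as the LINC gene in 99 of 152 cases, with a Pearson correlation of 0.24. Of the 45 genes beyond 2-fold, 16 lay outside the range of all 30 neighbours, against 5 of the 107 within 2-fold. The 45 were picked for large ratios, so a place outside that range is in part given by the choice. Among 7 LINC genes that start within 1 kb of an oppositely oriented coding gene, 2 were on the same side as that gene. LINC01134, 132 bases from the start of C1orf174, had 82 counts in LM2, against 181 in MDA-MB-231, while C1orf174 had 2040 in LM2, against 1710 in MDA-MB-231.

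Chromosomes 18 and 4 were picked after their values were seen. Over all genes, 4.55% were over 2-fold higher in LM2 and 6.88% were over 2-fold lower. Chromosome 18 held 5 LINC genes, of which 3 (LINC01929, LINC01443 and LINC01444) were lower in LM2. LINC01443 and LINC01444 overlap on opposite strands, so they are not separate loci. The median log2 ratio of the 5 was -1.88, and the 168 protein-coding genes of that chromosome had a median of -0.49. Around LINC01929 the median of the 30 nearest coding genes was -0.72, while the nearest of them, the transcription factor gene TCF4, had 77 counts in LM2 and 69 in MDA-MB-231. Chromosome 4 held 5 LINC genes, and 3 of them (LINC00989, LINC02615 and LINC02475) were higher in LM2 and 1 (LINC01085) was lower, beside a median of 0.13 over its 471 coding genes. Among 16 pairs of LINC genes within 100 kb of each other, 10 were on the same side of 0. Where spans overlap on opposite strands, as for LINC01356 and LINC01357 (-0.71 and -0.73 on the log2 scale), the same reads may enter both counts. LINC01303 and LINC03033 overlap and lay on opposite sides, with 380 and 244 counts in LM2, against 293 and 456 in MDA-MB-231.

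Transcripts of the same LINC gene gave similar ratios in most cases. Of 83 genes with more than 1 transcript at the minimum, the log2 ratios spanned over 1 in 5 genes and lay on both sides of 0 in 10. The median span was 0.17. The transcripts of 1 gene share exons and reads, so they do not count as repeated measurements.

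Of the 152 genes, 113 had a promoter window in the RefSeq table. A window was called CpG-rich where its GC share was over 50% and its observed over expected CpG ratio over 0.6. That held for 45.1% of the LINC genes at the minimum, for 14.6% of all 1578 LINC windows, and for 80.1% of 10241 protein-coding genes at the minimum. Of 51 CpG-rich LINC genes, 3 were higher and 7 lower in LM2 (19.6% beyond 2-fold). Of 62 other LINC genes, 11 were higher and 10 lower (33.9%). Protein-coding genes gave 8.15% for CpG-rich windows and 19.7% for the others, and the difference was not tested in either class. At a mean of 50 to under 200 counts the LINC genes beyond 2-fold were 7 of 27 with CpG-rich windows and 15 of 36 with others. The protein-coding shares in that band lay closer together, at 31.3% of 652 with CpG-rich windows and 35.5% of 479 with others. At a mean of 200 to under 1000 counts, 3 of 20 LINC genes with CpG-rich windows and 6 of 25 with others were beyond 2-fold. The protein-coding shares there were 11.6% of 2068 and 20.75% of 636, so a gap between window types was not particular to LINC genes.

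An AP-1 site was found in 15.9% of the windows of LINC genes at the minimum, against 13.8% of all LINC windows, 7.76% of all promoters and 4.57% of protein-coding genes at the minimum. It was present in 4 of 14 higher, 2 of 17 lower and 12 of 82 other LINC genes. The core of the cAMP response element was found in 5.31% of the LINC windows and in 3.63% of all promoters. The remaining motifs were a C/EBP-ATF core (TGATGCA, 0.885% of the LINC windows and 2.69% of all promoters), the TEAD site (12.4% and 14%), the TATA box (14.2% and 12%), the GC box (47.8% and 44.6%), a hypoxia response core (GCGTG, 38.9% and 36.3%) and the E2 box (23% and 20.6%). All were searched on both strands. Windows follow RefSeq starts, and for 82 of the 107 with a GENCODE gene the bases after the start occur in a transcript of that gene, so the others may not mark the start of the RNA counted.

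The minimum of 50 counts passes through a dense range of values. Just inside it were LINC00880 (38 counts in LM2 and 66 in MDA-MB-231), LINC01341 (69 in LM2 and 34 in MDA-MB-231) and LINC02449 (49 in LM2 and 52 in MDA-MB-231). Just outside it, each with a mean of 49.5, were LINC00452 (6 in LM2 and 93 in MDA-MB-231), LINC00482 (25 in LM2 and 74 in MDA-MB-231) and LINC02454 (54 in LM2 and 45 in MDA-MB-231).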

How the data were processed

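RNA of LM2 and MDA-MB-231 cells was analysed from deposited tables. Per the labels, the authors used bcl2fastq, TopHat2 2.0.13 and the build hg19 (GRCh37). The counter, its use of strand and the transcript annotation were not given in the sources used here. Read counts of 65423 transcripts were deposited as whole numbers and taken as they are. RPKM values were deposited beside them and follow from count, listed length and column total. Overlapping transcripts can count the same read more than once, so a total need not equal a number of reads. Column totals were 128985870 in LM2 and 130689252 in MDA-MB-231.

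The tests planned across libraries need more than 1 column per cell line and could not be run. Ratios were scaled by the column totals, with exact (Clopper-Pearson) intervals at 95% that cover counting error only. For log2 ratios 0.5 counts were added, and folds against 0 counts used a floor of 3 counts. The calculation was tested on simulated counts. Symbols came from current gene tables and GENCODE release 29, and sequences and starts from RefSeq (GRCh38.p14); 113 of 152 genes had a promoter window. Positions are those of GRCh38, and none was converted from hg19. Distances were taken to coding genes at the same minimum of 50 counts.

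The genes and lists were chosen with earlier results of these data known. Named genes were the 12 largest and 12 smallest ratios, the 12 highest mean RPKM values, the members of both cancer lists at the minimum, 3 genes on each side of the minimum and nearest coding genes. Others were named after their values were seen. Alternatives were factors from edgeR 4.0.16 and size factors from DESeq2 1.42.0, other minimums, RPKM with a pseudocount, and subsets of transcripts. Calculations used Python 3.11.15, pandas 2.3.3, scipy 1.17.1, R 4.3.3 and matplotlib 3.10.9.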

Additional observations from a re-analysis of the deposited data

How the results depend on the processing

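The counts of LINC genes over 2-fold higher and lower in LM2 depended most on the minimum. At a mean of at least 20 counts there were 39 higher and 45 lower genes of 247, at a mean of at least 100 counts 11 higher and 14 lower of 99, and with no minimum 322 higher and 321 lower of 986. On the log2(RPKM + 1) scale 5 were higher and 2 were lower, since the pseudocount exceeds most levels, while RPKM + 0.1 gave 16 and 17. With NR_ transcripts only, 5 were higher and 11 lower of 75. The share over all genes was not computed at these settings. It was larger at low counts under the main setting, so these counts are not set apart from those of all genes. With the whole interval beyond 2-fold, 13 were higher and 17 lower. Under TMM factors, upper-quartile factors, DESeq2 size factors and totals without the 12 transcripts with most counts, the higher genes numbered 19 to 20 and the lower genes 25 to 28. The median log2 ratio was negative under every alternative run, between -0.30 and -0.11. The number of genes on the same side as the nearest coding gene was 84 or 85 under these scalings. The 45 genes beyond 2-fold kept their direction under each alternative that gave them a value. For most alternatives this was given in advance. The scalings shifted all log2 ratios by little, and a pseudocount or another minimum cannot reverse a ratio beyond 2-fold. Only settings that can change the transcript taken for a gene could have reversed a direction. On the log2(RPKM + 0.1) scale 33 and on the log2(RPKM + 1) scale 7 stayed beyond 2-fold. With the transcript of highest mean RPKM, 35 of 36 did, and among other named genes LINC00941 gave -0.06 and LINC00662 1.03 on the log2 scale. Symbols of GENCODE release 29, chosen after seeing the data, gave 19 higher and 22 lower of 144. Leaving out chromosome 18, also chosen after seeing the data, gave 20 higher and 22 lower of 147.

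No paired analysis was possible because the columns carry no replicate numbers, and leaving out a replicate was not possible either. Genes with few counts have wide intervals, as for LINC00989 with 1 count in MDA-MB-231, and these columns give no estimate of the spread between cultures.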

Other observations

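Another 15 genes at the minimum carried LINC symbols in GENCODE release 29 and have been renamed since, 10 of them as antisense (-AS) or divergent (-DT) transcripts of a coding gene. They were not counted above. ICMT-DT, formerly LINC00337, had 155 counts in LM2, against 22 in MDA-MB-231. ZC3H12A-DT, formerly LINC01137, had 52 counts in LM2, against 148 in MDA-MB-231, and ATP13A3-DT, formerly LINC00884, had 31 in LM2, against 77 in MDA-MB-231. RDUR, formerly LINC02085, had 917 counts in LM2, against 545 in MDA-MB-231. These genes were named after their values were seen.

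Below the minimum, some LINC genes of the carcinoma list differed in counts. LINC00839 had 40 counts in LM2, against 6 in MDA-MB-231, and LINC01503 had 29 in LM2, against 16 in MDA-MB-231. LINC00518, of the breast cancer list, had 32 counts in LM2, against 62 in MDA-MB-231. Near LINC02211 and LINC02228 on chromosome 5, which had 228 and 94 counts in LM2, against 187 and 90 in MDA-MB-231, the nearest coding gene at the minimum was PRDM9, a histone methyltransferase of meiosis. It had 186 counts in LM2, against 0 in MDA-MB-231, 1663 kb and 1598 kb away.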
